A study of Mus musculus with 12 samples.

Results

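The 6 genes studied here encode the chains of 3 receptors for class II cytokines, and each receptor pairs a ligand-binding chain with a second chain. Il10ra and Il10rb form the receptor for interleukin-10, Ifnar1 and Ifnar2 the receptor for the type I interferons, and Ifngr1 and Ifngr2 the receptor for interferon gamma. The 6 genes were taken by name from the table of raw gene counts, in which each symbol matched 1 Ensembl identifier of the mouse genome GRCm38, and they make up 6 of 50563 genes. The counts came from cortex of 12 aged E4FAD mice, which carry 2 copies of human APOE4 in place of mouse Apoe (APOE4+/+) and 1 copy of the 5xFAD transgenes (5xFAD-/+) on a C57BL/6 background. All mice therefore shared both alleles, and no mouse without them was compared. In 5xFAD mice the Thy1 promoter drives the transgenes, which carry familial Alzheimer's disease mutations, in neurons. The DPAn-6 group held 5 mice given the ethyl ester of docosapentaenoic acid n-6 by oral gavage each day, at 700 mg/kg for 3 weeks. The 7 mice of the CTRL group were given vehicle, and both groups received the same antioxidants. By the labels 2 CTRL and 2 DPAn-6 mice were 12 months old and 5 CTRL and 3 DPAn-6 mice were 14 months old. The study's methods give 4 females and 3 males in CTRL and 3 females and 2 males in DPAn-6, but the sex of a single mouse is not in the labels. The comparison asked whether DPAn-6 altered inflammatory signalling genes in aged cortex.

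Class II cytokine receptors have no kinase activity of their own, and their cytoplasmic tails hold Janus kinases that phosphorylate STAT factors once a ligand joins the chains. Interleukin-10 restrains activation of microglia and macrophages mainly through STAT3. Type I interferons induce antiviral genes, with STAT2 and IRF9 among their factors, while interferon gamma induces antigen presentation. IL10RB is a shared chain that also serves the receptors for interleukin-22 and interferon lambda.

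On chromosome 16, 4 of the genes lie side by side and all 4 are read from the plus strand. Ifnar2 (ENSMUSG00000022971; 91372783 to 91405589) ends 575 bases before Il10rb (ENSMUSG00000022969; 91406164 to 91425834). Ifnar1 (ENSMUSG00000022967; 91485238 to 91507441) and Ifngr2 (ENSMUSG00000022965; 91547072 to 91565623) follow, so that the 4 genes span 192.8 kb. Il10ra (ENSMUSG00000032089) is on chromosome 9 from 45253837 to 45269149 on the minus strand. Ifngr1 (ENSMUSG00000020009) is on chromosome 10 from 19591949 to 19610229 on the plus strand. The annotation holds a further gene, Gm21970, that runs from Ifnar2 into Il10rb on the same strand and shares 9.46% of the exon length of Ifnar2 and 14.9% of that of Il10rb. STAR does not count a read that falls in more than 1 gene, and Gm21970 had 0 counts in every mouse, so the counts of these 2 chains can miss reads from the shared exons in every library.

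RefSeq (GRCm38.p6) gave start sites for 4 of the 6 chains, and the 250 bases before each start are shown so that the partner chains of the interferon receptors can be read against each other. Capitals mark GC boxes, the letters GGGCGG on either strand.
Ifnar1, chr16:91484965-91485214, plus strand: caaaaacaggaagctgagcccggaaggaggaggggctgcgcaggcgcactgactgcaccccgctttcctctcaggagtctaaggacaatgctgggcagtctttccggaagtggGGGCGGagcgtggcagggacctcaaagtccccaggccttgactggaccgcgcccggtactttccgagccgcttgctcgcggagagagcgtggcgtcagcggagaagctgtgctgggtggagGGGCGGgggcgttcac
Ifnar2, chr16:91372533-91372782, plus strand: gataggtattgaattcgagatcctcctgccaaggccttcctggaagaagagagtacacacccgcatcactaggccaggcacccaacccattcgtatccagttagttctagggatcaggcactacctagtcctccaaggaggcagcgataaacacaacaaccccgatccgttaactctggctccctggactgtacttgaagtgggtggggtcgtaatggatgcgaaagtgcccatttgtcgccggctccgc
Ifngr1, chr10:19591699-19591948, plus strand: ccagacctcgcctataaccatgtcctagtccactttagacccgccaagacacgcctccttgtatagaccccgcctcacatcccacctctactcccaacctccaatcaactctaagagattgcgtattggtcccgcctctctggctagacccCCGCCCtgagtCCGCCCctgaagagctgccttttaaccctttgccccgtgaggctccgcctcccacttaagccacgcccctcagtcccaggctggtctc
Ifngr2, chr16:91546809-91547058, plus strand: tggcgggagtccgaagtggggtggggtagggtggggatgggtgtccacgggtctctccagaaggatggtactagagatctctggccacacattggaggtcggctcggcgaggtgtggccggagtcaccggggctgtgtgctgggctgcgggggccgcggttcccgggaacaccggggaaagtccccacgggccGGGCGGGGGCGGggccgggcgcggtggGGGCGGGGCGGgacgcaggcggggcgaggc
GC boxes stood in 3 of these sequences, with 2 in Ifnar1, 2 in Ifngr1 and 4 in Ifngr2, of which some overlap. Ifnar2, which starts the row of 4 genes, had 0. Of all 32851 promoter sequences of this length, 32.7% held a GC box. CG pairs numbered 19 in Ifnar1, 11 in Ifnar2, 11 in Ifngr1 and 25 in Ifngr2, against a median of 6 over all promoters. The letters TTCNNNGAA, the core of the gamma-activated site, occurred once, in Ifnar2, and in 7.02% of all promoters. These matches are a description of the letters in the window and are not sites of measured binding.

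Each library held 15208803 to 26520251 counts on genes, and each mouse gave 1 library. All 6 chains were counted in all mice. Levels are given as CPM, counts scaled to the same library total, or as log2 CPM after adding 0.5 to each count. Slc17a7, a vesicular glutamate transporter of excitatory neurons, had 18671 to 47732 counts. Of the markers of lymphocytes and granulocytes, Cd3e and Cd8a had at most 5 counts and Ly6g at most 1 count in any mouse, while S100a8 reached 16 and S100a9 29 counts. Cd4, which microglia and macrophages can also express, had 24 to 150 counts, with a log2 fold change of 0.14 (edgeR, adjusted p = 0.914). Choroid plexus RNA varied strongly between libraries, with 32 to 23880 counts of Ttr, its main secreted transport protein, and the mean of the 6 choroid plexus markers tested ran from 0.40 to 5.37 log2 CPM in CTRL and from 0.00 to 1.07 in DPAn-6. Its part in the results below was not tested beyond a fit with Ttr as a covariate, in which Il10rb had a log2 fold change of -0.34 with a standard error of 0.15 and Ifnar2 -0.31 with 0.14. In that fit the edgeR p was 0.0397 for Il10rb (adjusted p = 0.724) and 0.0456 for Ifnar2 (adjusted p = 0.759). The share of all genes called in that fit is not given here.

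Per length of exon, the order of the chains was the same in nearly all mice. Values are FPKM, here the CPM of a gene divided by its exon length in kb. Ifngr2 was highest, with a mean of 10.8 FPKM and a range of 9.16 to 12.1 over the 12 mice. Ifnar1 had 8.19 FPKM (7.72 to 8.89) and Ifngr1 7.0 FPKM (5.86 to 7.76). Ifnar2 had 4.35 FPKM (3.45 to 5.11), Il10ra 3.26 FPKM (2.54 to 4.34) and Il10rb 2.49 FPKM (1.74 to 3.0). Ifngr2 exceeded Ifnar1, Ifngr1 exceeded Ifnar2 and Ifnar2 exceeded Il10ra in 12 of 12 mice. The steps from Ifnar1 to Ifngr1 and from Il10ra to Il10rb held in 11 of 12 mice. With the exons shared with Gm21970 left out of the length, Ifnar2 had 4.81 FPKM and Il10rb 2.92 FPKM, and the order of the means did not change. The interleukin-10 receptor was the receptor with the lowest message level of the 3 for both of its chains.

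**Figure D1:**
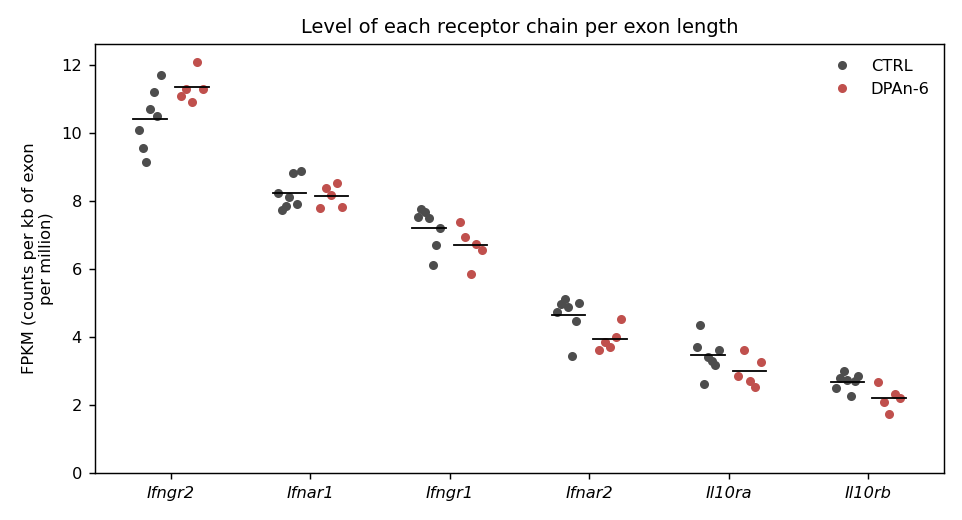
Level of each receptor chain in FPKM (CPM per kb of exon) by mouse, with CTRL in grey, DPAn-6 in red and group means as lines. Ifngr2 had the highest mean, 10.8 FPKM over the 12 mice, and Il10rb the lowest, 2.49 FPKM.

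Between the groups, 5 of the 6 chains had a lower mean in DPAn-6 and Ifngr2 had a higher one, and 0 of the 6 passed an adjusted p of 0.05 by edgeR's quasi-likelihood test with Benjamini-Hochberg adjustment over 15688 genes. Over all genes 1.55% passed, 1.14% with lower values in DPAn-6. The groups overlapped for all 6 chains, and over all genes 3.22% did not overlap. At an unadjusted p below 0.05, 2 of the 6 chains were lower in DPAn-6 by edgeR, Il10rb and Ifnar2, against 9.02% of all genes lower and 14.5% in either direction. The same 2 chains had an unadjusted exact permutation p below 0.05, against 15.8% of all genes. The median log2 fold change was -0.18 over the 6 chains and -0.005 over all genes tested, and 51.3% of all genes were lower. As bulk cortex was measured, fewer cells of a type and less RNA per cell cannot be told apart. The p-values set each difference between the groups against the variation between these mice. Levels below are log2 CPM, and fold changes are DPAn-6 against CTRL.

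Il10ra, the chain that binds interleukin-10 and that microglia carry in brain, ran from 3.21 to 3.93 log2 CPM in CTRL with a median of 3.58. The 5 DPAn-6 mice had 3.32, 3.66, 3.24, 3.16 and 3.52 log2 CPM. Of these, 4 lay under the CTRL mean and 1 under the lowest CTRL mouse, so the groups overlapped widely. CTRL averaged 3.58 ± 0.22 (SD, n = 7) and DPAn-6 averaged 3.38 ± 0.21 (SD, n = 5). The log2 fold change was -0.23 with a standard error of 0.12 (edgeR, adjusted p = 0.413). A two-sided exact permutation test, with 792 ways to split the mice, gave p = 0.135.

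Il10rb, the signalling chain shared with other receptors of the family, ran from 3.11 to 3.52 log2 CPM in CTRL with a median of 3.39, on 163 to 193 counts. In DPAn-6 the values were 3.35, 2.99, 2.74, 3.16 and 3.07 log2 CPM, on 132 to 222 counts. Each of the 5 lay under the mean of CTRL and 3 lay under its lowest mouse, while DPAn-6 mice 1 and 4 lay within the CTRL range. CTRL averaged 3.35 ± 0.13 (SD, n = 7) and DPAn-6 averaged 3.06 ± 0.23 (SD, n = 5). This gave the largest log2 fold change of the 6 chains, -0.31 with a standard error of 0.11 (edgeR, adjusted p = 0.197). By exact permutation the two-sided p was 0.0164, or 0.196 after adjustment over all genes. Without DPAn-6 mouse 3, the lowest of all 12, the log2 fold change was -0.23 and the unadjusted edgeR p was no longer below 0.05, while the exact permutation p stayed at 0.0485 or less with any 1 mouse left out.

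Ifnar1, the chain of the interferon receptor that holds TYK2, differed least. It ran from 5.52 to 5.72 log2 CPM in CTRL with a median of 5.59, and the DPAn-6 mice had 5.54, 5.64, 5.60, 5.66 and 5.54 log2 CPM. All DPAn-6 values lay inside the CTRL range. CTRL averaged 5.61 ± 0.08 (SD, n = 7) and DPAn-6 averaged 5.60 ± 0.06 (SD, n = 5). Its log2 fold change was -0.04 with a standard error of 0.06 (edgeR, adjusted p = 0.841), and the exact permutation p was 0.749.

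Ifnar2, the chain that binds type I interferon with high affinity and holds JAK1, ran from 3.53 to 4.09 log2 CPM in CTRL with a median of 4.03. The DPAn-6 mice had 3.59, 3.68, 3.62, 3.73 and 3.91 log2 CPM. All 5 lay below the CTRL mean, yet none lay below every CTRL mouse, because CTRL mouse 5 had the lowest value of all 12. The other 6 CTRL mice were at 3.90 or above, and 4 of the 5 DPAn-6 mice were at 3.73 or below. CTRL averaged 3.95 ± 0.20 (SD, n = 7) and DPAn-6 averaged 3.71 ± 0.13 (SD, n = 5). Its log2 fold change was -0.27 with a standard error of 0.11 (edgeR, adjusted p = 0.254). The exact permutation p was 0.048, or 0.307 after adjustment. The unadjusted edgeR p was no longer below 0.05 without DPAn-6 mouse 1, 2 or 3. The exact permutation p ran from 0.00433 to 0.109 with 1 mouse left out, and its lowest value was without CTRL mouse 5.

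Ifngr1, which binds interferon gamma, ran from 4.13 to 4.47 log2 CPM in CTRL with a median of 4.42. In DPAn-6 it had 4.39, 4.30, 4.06, 4.27 and 4.23 log2 CPM. Of these, 4 were under the mean of CTRL and 1, DPAn-6 mouse 3, was under its lowest mouse. CTRL averaged 4.36 ± 0.12 (SD, n = 7) and DPAn-6 averaged 4.25 ± 0.12 (SD, n = 5). Its log2 fold change was -0.13 with a standard error of 0.09 (edgeR, adjusted p = 0.53), and the exact permutation p was 0.165.

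Ifngr2, the accessory chain that brings JAK2 to the interferon gamma receptor, was the one chain with a higher mean in DPAn-6. It ran from 5.11 to 5.47 log2 CPM in CTRL with a median of 5.31, and the DPAn-6 mice had 5.39, 5.42, 5.36, 5.51 and 5.41 log2 CPM. All 5 DPAn-6 mice lay above the CTRL mean and 1 lay above every CTRL mouse. CTRL averaged 5.29 ± 0.12 (SD, n = 7) and DPAn-6 averaged 5.42 ± 0.06 (SD, n = 5). Its log2 fold change was 0.10 with a standard error of 0.07 (edgeR, adjusted p = 0.552), and the exact permutation p was 0.0657.

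**Figure D2:**
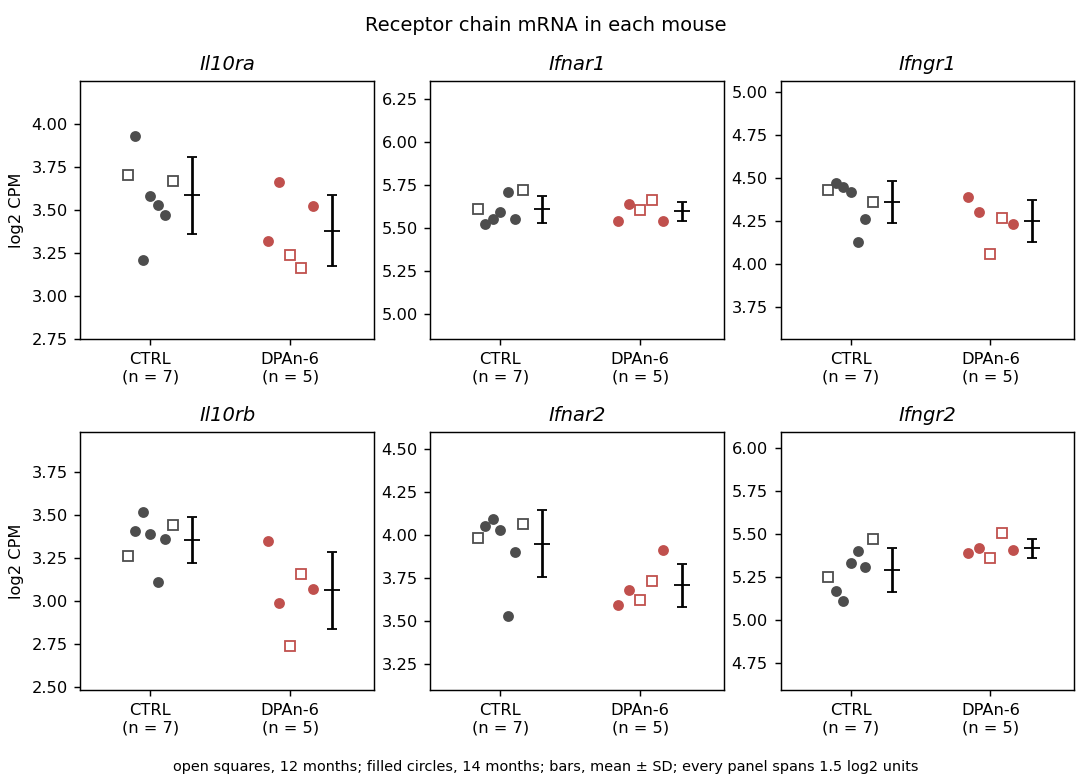
Log2 CPM of the 6 receptor chains in each mouse, in 6 panels of equal height (1.5 log2 units), with open squares for 12-month and filled circles for 14-month mice and bars for the mean ± SD. The groups overlap in every panel, and the DPAn-6 mean is below the CTRL mean in 5 panels and above it for Ifngr2.

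Because both chains of a receptor were counted in the same library, their ratio does not depend on the scaling between libraries. The ratios are of counts and are not adjusted for length. The ratio of Ifnar1 to Ifnar2 counts was 3.10, 2.77, 2.74, 2.96, 4.56, 3.15 and 3.18 in the 7 CTRL mice and 3.85, 3.88, 3.95, 3.81 and 3.08 in the 5 DPAn-6 mice. A set of 4 DPAn-6 mice lay between 3.81 and 3.95, above 6 of the 7 CTRL mice, while CTRL mouse 5 stood above them and DPAn-6 mouse 5 among the CTRL mice. The log2 ratio averaged 1.66 ± 0.25 (SD, n = 7) among CTRL mice and 1.89 ± 0.15 (SD, n = 5) among DPAn-6 mice, a difference of 0.23 (two-sided exact permutation test, p = 0.0884, 0.133 after adjustment over the 3 ratios). Without CTRL mouse 5 the difference was 0.31 with an exact p of 0.00866, and without DPAn-6 mouse 5 it was 0.29 with an exact p of 0.0424.

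The ratio of Ifngr1 to Ifngr2 counts ran from 0.414 to 0.634 in CTRL and was 0.502, 0.463, 0.406, 0.421 and 0.442 in DPAn-6. Each of the 5 was under the mean log2 ratio of CTRL, and 1 was under its lowest mouse. The log2 ratio averaged -0.93 ± 0.22 (SD, n = 7) among CTRL mice and -1.17 ± 0.12 (SD, n = 5) among DPAn-6 mice, a difference of -0.23 (exact permutation p = 0.0644, adjusted p = 0.133). With 1 mouse left out the exact p ran from 0.0195 to 0.136. It was below 0.05 only without CTRL mouse 5 (0.0195) or DPAn-6 mouse 1 (0.0455). In 14-month mice alone the difference was -0.18 (exact permutation p = 0.321). Il10ra to Il10rb ran from 0.806 to 1.44 in CTRL and from 0.979 to 1.59 in DPAn-6, with a difference of 0.09 in the log2 ratio that was smaller than the SD of either group (exact permutation p = 0.617). None of the 3 ratios differed at an adjusted p of 0.05.

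**Figure D3:**
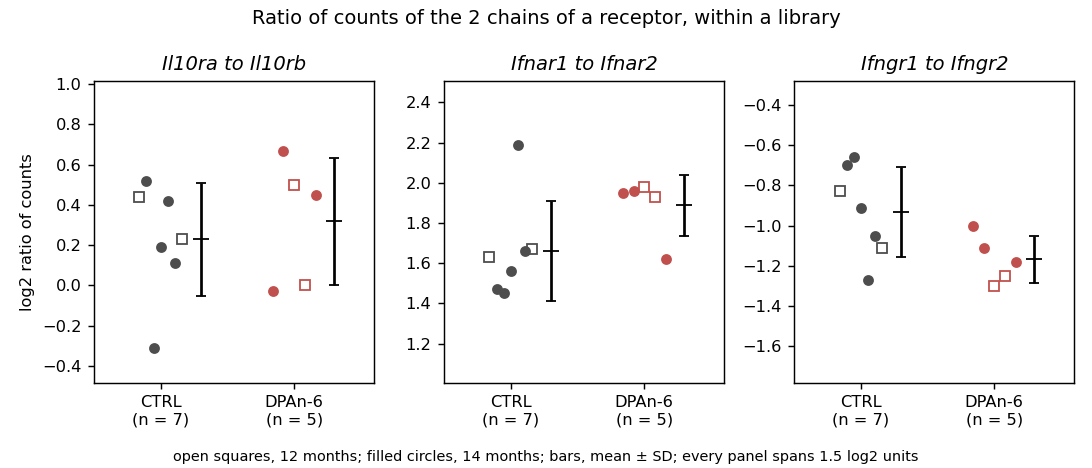
Log2 ratio of the counts of the 2 chains of each receptor within a library, by mouse, with open squares for 12-month and filled circles for 14-month mice and bars for the mean ± SD. For Ifnar1 to Ifnar2, 4 DPAn-6 mice lie between 1.93 and 1.98 and CTRL mouse 5 stands apart at 2.19.

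Split by age, the differences pointed the same way at 12 and 14 months for all 6 chains. At 12 months, with 2 mice in each group, Il10ra was at 3.70 and 3.67 log2 CPM in CTRL and at 3.24 and 3.16 in DPAn-6. Its log2 fold change at this age was -0.49 with a standard error of 0.14 (edgeR, adjusted p = 0.0636). At 14 months it was -0.08 with a standard error of 0.16 (edgeR, adjusted p = 0.904). Il10rb had log2 fold changes of -0.41 at 12 months and -0.24 at 14 months, and Ifnar2 -0.35 and -0.22. Ifngr1 had -0.23 and -0.06, Ifnar1 -0.04 at both ages, and Ifngr2 0.07 and 0.11. At 12 months 3 of the 6 chains had an unadjusted edgeR p below 0.05, namely Il10ra, Il10rb and Ifnar2, against 20.8% of all genes, and at 14 months 0 of the 6 did, against 8.96% of all genes. With an adjusted p of 0.05 the counts were 0 of 6 at both ages, against 4.55% of all genes at 12 months and 0.0564% at 14 months. The difference between the ages was itself not past the threshold for any chain. It was 0.41 with a standard error of 0.25 for Il10ra (edgeR, adjusted p = 0.905), and the adjusted p was 0.906 or more for the other 5. Over all genes 4.26% had an unadjusted p below 0.05 for this term and 0.00637% an adjusted one. With 2 mice a group an exact permutation test cannot reach 0.05.

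**Figure D4:**
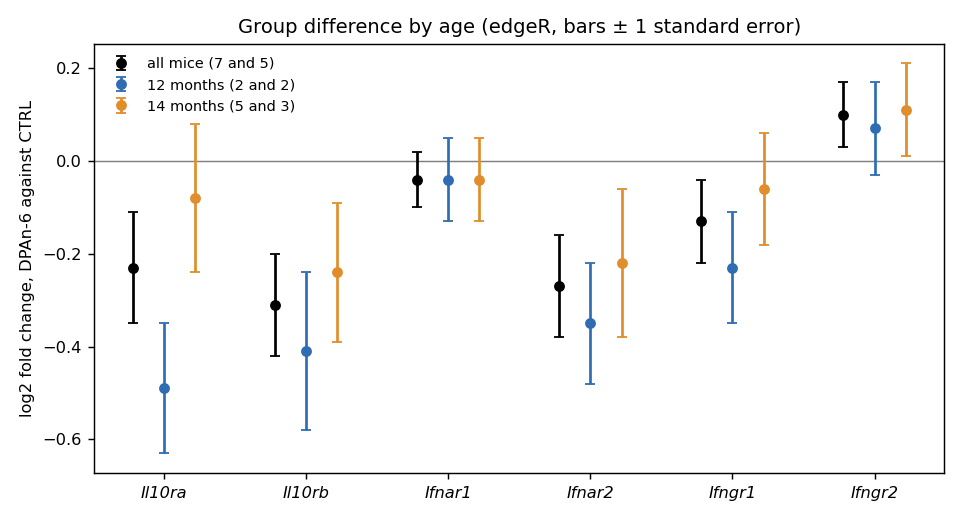
Log2 fold change of DPAn-6 against CTRL for each chain over all mice, at 12 months and at 14 months, with bars of 1 standard error (edgeR). Il10ra was at -0.49 at 12 months and -0.08 at 14 months, and Ifngr2 was above 0 at both ages.

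Along chromosome 16 the 4 neighbouring chains did not share 1 direction, and none passed an adjusted p of 0.05. Ifnar2 and Il10rb, which lie next to each other, had log2 fold changes of -0.27 and -0.31, while Ifnar1 had -0.04 and Ifngr2 0.10. Tmem50b, the next gene tested, which spans 201.7 to 225.0 kb from the start of Ifnar2 and is read from the opposite strand, had 0.10 with a standard error of 0.05 (edgeR, adjusted p = 0.387). On the other side lie Olig2 and Olig1, transcription factors of the oligodendrocyte lineage, which had log2 fold changes of 0.18 (edgeR, adjusted p = 0.335) and 0.20 (edgeR, adjusted p = 0.373). Beyond Tmem50b, the log2 fold change was -0.09 for Dnajc28, 0.07 for Gart, -0.10 for Son and -0.18 for Donson. Their adjusted p was 0.402 or more (edgeR). Il22ra2, a decoy receptor for interleukin-22 beside Ifngr1 on chromosome 10, had 2 counts in all.

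**Figure D5:**
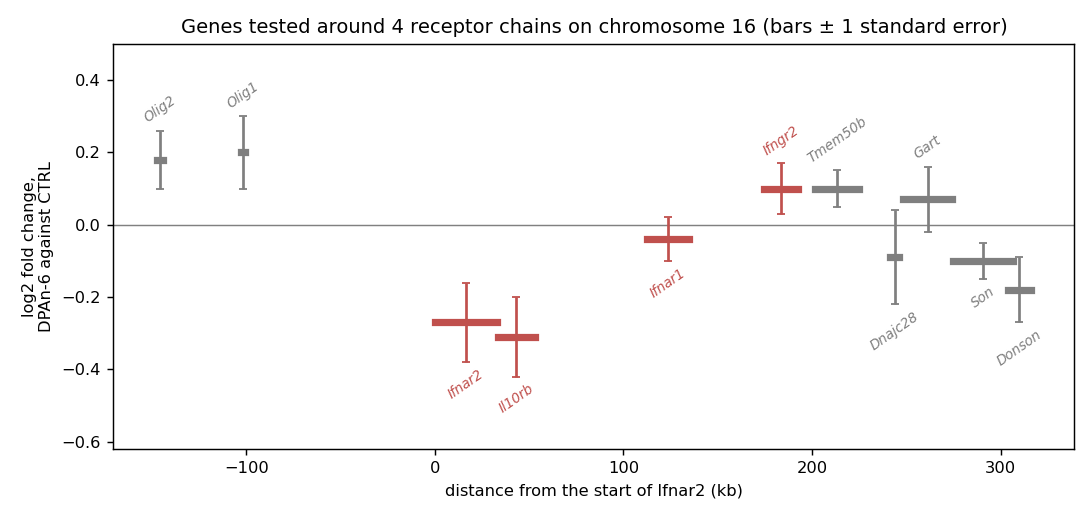
Log2 fold change of DPAn-6 against CTRL (edgeR, bars of 1 standard error) for the genes tested around the 4 chains on chromosome 16, by distance in kb from the start of Ifnar2, with thick lines spanning each gene and the chains in red. Ifnar2 and Il10rb sit at -0.27 and -0.31, Ifnar1 at -0.04 and Ifngr2 at 0.10.

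Microglial markers differed between the groups in the same direction as most of the chains. All 16 markers of the microglial list had a lower mean, 4 of them past an adjusted p of 0.05 (Csf1r, C1qb, C1qc and Selplg). Over all genes 51.3% were lower, and 1.14% were lower and passed. The median log2 fold change of the list was -0.46. Csf1r, the receptor on which microglia depend, had a log2 fold change of -0.50 (edgeR, adjusted p = 0.0282). The mean of the list ran from 5.91 to 6.51 log2 CPM in CTRL and from 5.44 to 5.96 in DPAn-6. With this mean as a covariate, the log2 fold change was 0.01 for Il10ra with a standard error of 0.17, -0.17 for Il10rb with 0.18, -0.04 for Ifnar2 with 0.16 and 0.07 for Ifngr1 with 0.12. Ifngr2 was at 0.04 and Ifnar1 at -0.10 in this fit, and the smallest unadjusted edgeR p of the 6 was 0.321, for Ifnar1. Without the covariate the standard error of Il10rb was 0.11, and the share of all genes called with it is not given here. The covariate itself differed between the groups, so the treatment and the microglial level cannot be told apart in it. Markers of border macrophages were lower for all 5 genes tested, with a median of -1.29. Those of mural cells and fibroblasts were lower for 10 of 10, with a median of -0.42. Of 10 astrocyte markers 8 were lower and 2 higher, with a median of -0.16. Higher means were found for 8 of 8 markers of inhibitory neurons and 8 of 10 of oligodendrocytes, with medians of 0.20 and 0.21. The part of these cells in the receptor values was not tested.

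Chains were also compared with each other from mouse to mouse within the groups. Each value was centred on its group mean, and 21 relations were computed over the 12 mice, 15 between chains and 6 with the microglial mean. None passed an adjusted p of 0.05. Il10rb and Ifngr1 had the highest Pearson r, 0.801 (permutation p = 0.00287, adjusted p = 0.0603), with a Spearman rho of 0.671 (permutation p = 0.0213). It was 0.503 without CTRL mouse 5 and DPAn-6 mouse 3, the mice farthest from the median of Il10rb. Ifnar1 and Ifngr2 had r of 0.732 (permutation p = 0.0103, adjusted p = 0.0758) and rho of 0.587 (permutation p = 0.0646), and r of 0.431 without CTRL mice 5 and 7. The microglial mean correlated most with Ifngr1, with r of 0.736 (permutation p = 0.0108, adjusted p = 0.0758) and rho of 0.566 (permutation p = 0.0717). This r was 0.301 without CTRL mouse 5 and DPAn-6 mouse 3, so it rests on those mice. For Il10ra and the microglial mean r was 0.473 (permutation p = 0.142) and rho 0.615 (permutation p = 0.049, adjusted p = 0.345).

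By the same centred r over 12 mice and 12777 genes, the genes most alike to each chain are given as a description only. They were picked as the highest of 12777 values, and their r was not tested against chance. For Il10ra these were Capg (r = 0.914), a capping protein of actin, Atp10a (0.913), a phospholipid flippase, and Bcam (0.902), a laminin receptor. Atp10a had a log2 fold change of -0.40 (edgeR, adjusted p = 0.045). For Ifngr1 they were Cd9 (0.926), a tetraspanin, Gbp9 (0.917), a guanylate-binding protein of a family that interferon gamma induces, and P2ry6 (0.902), a nucleotide receptor. For Il10rb they were Prag1 (0.907), Ptn (0.854), which encodes the growth factor pleiotrophin, and Casp1 (0.851), the inflammasome protease. Ifnar1 was most like Cntnap5b (0.934), Plcl1 (0.876) and Ttc26 (0.861). Ifnar2 was most like Slx4ip (0.906), Nosip (0.884) and Vkorc1 (0.881), and Ifngr2 like Chchd2 (0.906), Osbp (0.886) and Mreg (0.877).

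The ligands of these receptors were at or near the limit of detection. Of 26 genes for interleukin-10 family cytokines and interferons, 18 had 0 counts in all 12 mice and 25 had at most 3 counts in any mouse. Il10 had 1 count in all 12 libraries together, and Ifng had 4 counts in 2 mice. Il22 had the most, 9 counts over 6 mice. None was abundant enough to be tested, and at this depth a difference between the groups was not detectable. Of the other class II receptors only F3, the coagulation initiator tissue factor, was tested, with a log2 fold change of -0.01 (edgeR, adjusted p = 0.99). Il20ra had 66 counts in all, Il20rb 91, Ifnlr1 53, Il22ra1 6 and Il22ra2 2, none of them tested.

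Downstream of the receptors, 0 of 12 Janus kinases and STAT factors tested passed an adjusted p of 0.05, with 4 higher, 8 lower and a median log2 fold change of -0.06. Over all genes 1.55% passed and 51.3% were lower. At an unadjusted edgeR p below 0.05, 1 of the 12 was lower and 0 higher, against 9.02% and 5.51% of all genes. Stat2, the factor particular to interferon signalling, ran from 5.20 to 5.34 log2 CPM in CTRL and from 5.04 to 5.24 in DPAn-6, and its log2 fold change was -0.15 with a standard error of 0.06 (edgeR, adjusted p = 0.258). Jak1, the kinase common to the 3 receptors, had a log2 fold change of 0.09 (edgeR, adjusted p = 0.573). Of 20 negative regulators tested, 0 passed, with 8 higher, 12 lower and a median of -0.03. At an unadjusted edgeR p below 0.05, 2 of the 20 were lower and 0 higher. Cbl, a ubiquitin ligase, had a log2 fold change of -0.21 (edgeR, adjusted p = 0.184), and Btrc, the ubiquitin ligase subunit that marks IFNAR1 for degradation, had 0.12 (edgeR, adjusted p = 0.443).

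Target genes of the 3 receptors were counted by lists chosen for their known induction. For interleukin-10, 1 of 11 genes tested passed, the scavenger receptor Cd163, which was lower in all 5 DPAn-6 mice than in every CTRL mouse. Its log2 fold change was -1.29 with a standard error of 0.27 (edgeR, adjusted p = 0.0292). Cd163 is also a marker of border macrophages, whose other markers Mrc1 and F13a1 fell with log2 fold changes of -1.29 and -1.36 (edgeR, adjusted p = 0.0026 and 0.0085). The other 10 were 5 higher and 5 lower, and the list's median was -0.05. At an unadjusted p below 0.05, 1 of the 11 was higher and 2 were lower, against 5.51% and 9.02% of all genes. Chosen after their values were seen, the other 2 were Nfil3, a transcription factor, and Fcgr1, an Fc receptor of macrophages and microglia. Nfil3 was at 2.51 to 3.29 log2 CPM in CTRL and at 3.30 to 3.69 in DPAn-6, with a log2 fold change of 0.48 (edgeR, adjusted p = 0.0834). Fcgr1 was at 2.54 to 3.25 log2 CPM in CTRL and at 2.34 to 2.51 in DPAn-6, with a log2 fold change of -0.42 (edgeR, adjusted p = 0.119). Neither overlapped between the groups, nor did Cd163. Over all genes 3.22% did not overlap, 1.49% with lower values in DPAn-6. Of 29 type I interferon targets tested, 0 passed, although 24 were lower and the median was -0.22, against a median of -0.005 over all genes. At an unadjusted p below 0.05, 4 of the 29 were lower and 0 higher, against 9.02% and 5.51% of all genes. The median was -0.14 without CTRL mouse 3, -0.12 without DPAn-6 mouse 3, -0.07 in 14-month mice alone and 0.07 with the microglial mean as a covariate. Other refits enlarged it, with a range of -0.33 to -0.12 with 1 mouse left out and of -0.34 to 0.07 over all refits. Parp14 had the smallest unadjusted p among the 29, with a log2 fold change of -0.51 (edgeR, adjusted p = 0.166), and Cmpk2 had 0.13 (edgeR, adjusted p = 0.48).

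For interferon gamma, 1 of 26 targets tested passed, H2-Ab1, the beta chain of MHC class II, with 23 of the 26 lower and a median of -0.18. At an unadjusted p below 0.05, 7 of the 26 were lower and 0 higher, against 9.02% and 5.51% of all genes. The median was -0.28 without DPAn-6 mouse 1, -0.11 without DPAn-6 mouse 3 and -0.01 in 14-month mice alone. H2-Ab1 ran from 1.90 to 3.69 log2 CPM in CTRL and from 1.55 to 2.16 in DPAn-6, and its log2 fold change was -1.32 with a standard error of 0.25 (edgeR, adjusted p = 0.017). Picked out after their values were seen, the other MHC class II genes H2-Aa, H2-Eb1 and Cd74 had log2 fold changes of -1.26, -1.20 and -1.03 and adjusted p of 0.0643, 0.0587 and 0.0641 (edgeR). Both the microglial and the border macrophage markers moved in the same direction as these lists, and their part in the target genes was not tested by gene. With the microglial mean as a covariate, the median of the interferon gamma list was 0.14.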

How the data were processed

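RNA-Seq libraries (KAPA mRNA HyperPrep, poly(A)) of perfused cortex were sequenced. The authors aligned the reads with STAR (2.5.3a per the submitters' processing notes) to GRCm38 with Ensembl annotation and deposited raw counts per gene, without normalization. The strand used for counting is not given in the sources used here. Names, exons and gene positions came from GENCODE M21.

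The test over genes was that of edgeR 4.0.16 under R 4.3.3 (settings: TMM, filterByExpr by group, quasi-likelihood F-test, no covariate), with p-values adjusted by Benjamini-Hochberg over 15688 genes. For single values an exact permutation test was used, two-sided (smallest p 0.00126), on log2 CPM with a pseudocount of 0.5, and correlations by 100000 resamples. The scripts ran under Python 3.11.15 with pandas 2.3.3, scipy 1.17.1 and numpy 2.4.6. The edgeR test was checked on simulated counts with known changes. Alternatives were limma-voom (limma 3.58.1), with and without sample weights, DESeq2 1.42.0, other scalings and filters, age, Xist or the microglial mean as covariate, 14-month mice only, a replicate block and each mouse left out. A Ttr covariate and a length and GC correction were added after the data were seen. The receptor chains and the 7 pathway lists and 11 marker lists were chosen with earlier results of these data known. Within a pathway list, the genes named were those with an adjusted p below 0.05 or, where there were none, the smallest unadjusted p in each direction. The 3 genes most alike to each chain, markers whose list is described and neighbouring genes were also named. Counts per mouse limit the precision, and Il10rb rested on 132 to 222 counts.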

Additional observations from a re-analysis of the deposited data

Results flagged for a closer look

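In 3 of 18 groups of values examined, 1 mouse lay far from the others by Dixon's criterion, which chance meets in about 1 of 20 groups taken singly. The ratios are built from the counts of the chains, so the 18 groups are not independent. Both flags of CTRL mouse 5 below share its Ifnar2 count. CTRL mouse 5 had 3.53 log2 CPM of Ifnar2, and the next CTRL mouse had 3.90, a gap of 0.659 of the range of the group. The same mouse had the highest log2 ratio of Ifnar1 to Ifnar2 in CTRL, 2.19, with the next at 1.67 and a gap of 0.71 of the range. Among the DPAn-6 mice, mouse 5 had the lowest log2 ratio of Ifnar1 to Ifnar2, 1.62, with the next at 1.93 and a gap of 0.852 of the range. CTRL mouse 5 also had the lowest microglial marker mean of the CTRL group, 5.91 log2 CPM, and a choroid plexus marker mean of 4.71 log2 CPM.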

How the results depend on the processing

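In all 26 alternatives 0 of the 6 chains passed an adjusted p of 0.05 (smallest 0.0735, Il10rb), and the edgeR fold changes kept their direction in all refits but 2, those of Il10ra (0.01) and Ifngr1 (0.07) with the microglial mean as covariate, where the median of the interferon gamma targets was 0.14. The number of chains with an unadjusted p below 0.05 was 0 with that covariate, in 14-month mice alone and with the replicate block, and 0 to 3 with 1 mouse left out. Shares over all genes are given here only for the main fit, the age term and each age alone. The counts of the other refits therefore have no share beside them. The replicate numbers do not pair the mice: same-numbered mice had correlations of -0.125 to 0.22, and the block gave Il10rb -0.30 (edgeR, p = 0.0726) and Ifnar2 -0.25 (p = 0.11), and age terms of -0.02 for Il10rb and -0.09 for Ifngr2. In log2 CPM of 14-month mice the difference was -0.22 for Il10rb (exact p = 0.125) and -0.19 for Ifnar2 (exact p = 0.304). With 1 mouse left out the log2 CPM difference was -0.28 to -0.15 for Il10ra, -0.03 to 0.01 for Ifnar1, -0.31 to -0.21 for Ifnar2, -0.15 to -0.06 for Ifngr1 and 0.10 to 0.16 for Ifngr2. Of these, Ifnar2 passed an unadjusted exact p of 0.05 only without CTRL mouse 5 or DPAn-6 mouse 5, Il10ra only without CTRL mouse 3, Ifngr1 only without CTRL mouse 5, and Ifngr2 only without CTRL mouse 5 or 7. The log2 ratios were 0.00 to 0.18 for the interleukin-10 receptor, 0.19 to 0.31 for Ifnar1 to Ifnar2 and -0.29 to -0.19 for Ifngr1 to Ifngr2. The age terms were -0.03 to 0.36 for Il10rb, -0.06 to 0.04 for Ifnar1 and -0.07 to 0.13 for Ifngr2. Without TMM the r of Il10ra and Ifngr2 was 0.073 in place of -0.075, and with 1 mouse left out it ran from -0.482 to 0.23. Over the same refits r ran from -0.345 to 0.057 for Il10ra and Ifnar1, -0.376 to 0.081 for Il10ra and Il10rb, -0.345 to 0.046 for Il10rb and Ifngr2, -0.532 to 0.007 for Ifnar1 and Ifnar2, and 0.726 to 0.86 for Il10rb and Ifngr1. The number of relations past an adjusted p of 0.05 was 0 to 1, the 1 being Il10rb and Ifngr1 without CTRL mouse 1. The causes of these shifts were not tested. Counts of 132 to 303 per mouse limit the precision of Il10ra and Il10rb.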
